A study of Mus musculus with 2 samples.

Results

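Complement is described here through 9 genes in mouse liver tumours: the C1q chains C1qa, C1qb and C1qc, the convertase components C2, C4b, C3 and Cfb, and the anaphylatoxin receptors C3ar1 and C5ar1. The genes were chosen by name, and all 9 were found among the 32285 features of both count matrices. The study profiled 2 droplet single-cell RNA libraries, 1 from tumours labelled with the genotype shSrsf10 and titled shSrsf10, in which a short hairpin RNA targets the splicing factor Srsf10, and 1 from tumours labelled with the genotype WT and titled shCtrl. The series title names hepatocellular carcinoma. Strain, age, the cells that carry the hairpin and the number of animals pooled were not given in the sources used here. The labels conflict: the series text names a 5' kit, collagenase digestion and a sort without a stated gate, and the sample text names a 3' kit and a slow spin of liver cells that pellets hepatocytes. With 1 library per group there was no replicate and no test between groups. Intervals below are 95% intervals for counting error only.

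Complement is a cascade of plasma proteins, most of them made by hepatocytes. C1q, assembled from A, B and C chains, recognises bound antibody and dying cells and is made mainly by macrophages and some dendritic cells. The classical and lectin pathways cleave C4 and C2 to form a C3 convertase, and the alternative pathway forms one from C3 and factor B. Cleavage of C3 and C5 releases the small peptides C3a and C5a, which act on the receptors encoded by C3ar1 and C5ar1 on myeloid cells.

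After removal of barcodes with under 200 genes, under 500 UMIs or over 20% mitochondrial UMIs, 7486 of 7553 shSrsf10 barcodes and 9542 of 9920 shCtrl barcodes were left, with 136332461 and 142783013 UMIs. Barcodes were classed by a few genes. Tumour barcodes held at least 5 Krt8 and Krt18 UMIs and no Ptprc, and numbered 3953 in shSrsf10 and 6950 in shCtrl. Macrophage barcodes (Adgre1 or Csf1r, at least 3 Lyz2, and under 1% of UMIs from S100a8 and S100a9) numbered 134 in shSrsf10 and 205 in shCtrl. Neutrophil barcodes, with at least 1% of UMIs from S100a8 and S100a9, numbered 300 in shSrsf10 and 157 in shCtrl. T barcodes (at least 2 Cd3 UMIs) numbered 2107 in shSrsf10 and 385 in shCtrl. Depth differed: the median was 26474 against 17309.5 UMIs in tumour, 4862 against 3322 in macrophage, 804.5 against 701 in neutrophil and 2687 against 2260 in T barcodes. Of all barcodes, 67 sequences occurred in both libraries. The targeted gene Srsf10 stood at 19.8 CPM (UMIs per 1000000 UMIs of the class) in shSrsf10 and 45.7 CPM in shCtrl tumour barcodes, a log2 ratio of -1.21 (-1.27 to -1.14). It was also lower in T barcodes as classed, at 40.0 CPM in shSrsf10 and 62.3 CPM in shCtrl. Of these, 226 shSrsf10 and 48 shCtrl barcodes also held 5 or more keratin UMIs, at median depths of 29546 and 17184 UMIs. Srsf10 was not taken without them. Its log2 ratio was -0.63 (-1.38 to 0.10) in macrophage and -0.77 (-2.31 to 0.81) in neutrophil barcodes, and both intervals include 0. Neutrophil markers that the class rule did not use were high in neutrophil barcodes: G0s2 had 6804 CPM in shSrsf10 and 4656 CPM in shCtrl there, against 9.80 and 21.2 CPM in macrophage barcodes. Retnlg had 2752 CPM in shSrsf10 and 3408 CPM in shCtrl neutrophil barcodes, against 0 and 0.964 CPM in macrophage barcodes.

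The 9 genes split between compartments. Tumour barcodes held 92.1% of all C3 UMIs in shSrsf10 and 95.7% in shCtrl, and over 90% of Cfb, C2 and C4b in both libraries. Macrophage barcodes held 69.3% of the C1q UMIs in shSrsf10 and 51.4% in shCtrl. C5ar1 UMIs lay mostly in neutrophil barcodes in shSrsf10, 62.4%, against 22.2% in shCtrl, where macrophage barcodes held 29.4%. Barcodes outside all 4 classes held 18.6% of C5ar1 UMIs in shSrsf10 and 35.0% in shCtrl, more than any single class of shCtrl. C3ar1 was sparse, with 32 UMIs in shSrsf10 and 86 in shCtrl over all barcodes, and macrophage barcodes held 56.3% and 45.3% of them. Those outside all 4 classes held 34.4% in shSrsf10 and 47.7% in shCtrl, again more than any single class of shCtrl.

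**Figure D1:**
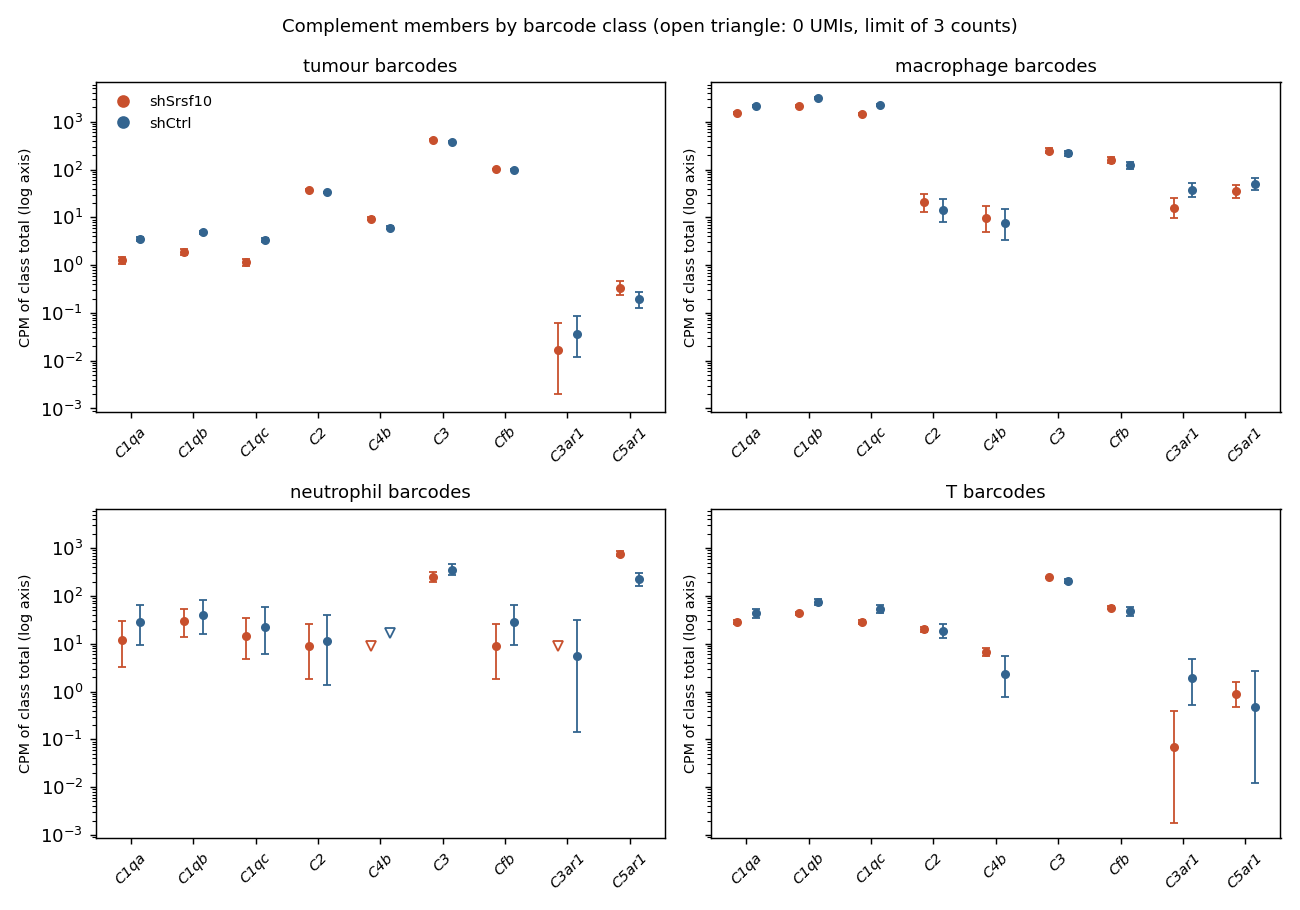
CPM of the 9 complement genes in each barcode class on a log axis, with shSrsf10 left of shCtrl, exact Poisson 95% intervals as bars and open triangles for genes with 0 UMIs, drawn at the limit of 3 counts. C3, Cfb and C2 lie close together between libraries in tumour barcodes, the C1q chains are lower in shSrsf10 macrophage barcodes, and C5ar1 is higher in shSrsf10 neutrophil barcodes.

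In tumour barcodes the convertase genes C3, Cfb and C2 differed little between the libraries, although genes induced by interferon gamma were several-fold higher in shSrsf10. Of the 9 members, 8 reached 20 UMIs over both libraries in this class. Those at least 1.5-fold higher in shSrsf10 were C4b and C5ar1, 2 of 8, beside 9.43% of all 15034 measured genes. Those at least 1.5-fold lower were the C1q chains, 3 of 8, beside 12.9% of all genes. C3, Cfb and C2 lay between. The median log2 ratio was 0.09 over the 8 members and -0.06 over all measured genes.

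C3, the central protein on which all pathways meet, had 50213 UMIs in shSrsf10 tumour barcodes and 52336 in shCtrl tumour barcodes. That is 423 CPM (419 to 427) in shSrsf10 and 386 CPM (382 to 389) in shCtrl, a log2 ratio of 0.13 (0.12 to 0.15). At least 1 C3 UMI was found in 95.5% of shSrsf10 and 92.8% of shCtrl tumour barcodes, and with each barcode thinned to 1000 UMIs in 35.6% of shSrsf10 and 31.3% of shCtrl. Among tumour barcodes with at least 10000 UMIs, 2.15% in shSrsf10 and 3.90% in shCtrl had no C3 UMI. In those barcodes the 10th percentile, median and 90th percentile were 1.19, 3.70 and 8.52 C3 UMIs per 10000 in shSrsf10, and 0.817, 3.25 and 7.72 in shCtrl.

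The C3 gene lies on chromosome 17, 57203970 to 57228136, on the minus strand (GRCm38, GENCODE vM21). The 250 bases before its RefSeq start (GRCm38.p6, chr17:57228137-57228386, minus strand) are shown because C3 varied with the interferon gamma score described below. Capitals mark every match to the searched motifs on either strand. The motifs were GAGGAA for PU.1-type ETS factors, TTGCNNAA for C/EBP, GGGANTTTC for NF-kB, GAAANNGAA for interferon regulatory factors (IRF), and TATAAA.
C3: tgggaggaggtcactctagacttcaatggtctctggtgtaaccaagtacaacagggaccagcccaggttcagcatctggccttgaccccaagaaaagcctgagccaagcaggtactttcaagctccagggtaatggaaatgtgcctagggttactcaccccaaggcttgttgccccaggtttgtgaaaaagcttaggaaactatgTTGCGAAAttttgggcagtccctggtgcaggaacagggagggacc
The window held 1 C/EBP match, TTGCGAAA, at 45 bases before the start, and such letters occur in 9.56% of 32851 RefSeq promoter windows of this length. Neither the IRF letters, found in 7.13% of windows, nor the NF-kB letters, found in 0.941%, occur in it. These are letter matches and do not show binding.

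Cfb, the protease of the alternative C3 convertase (chromosome 17, 34856374 to 34862518), stood at 103 CPM (101 to 105) in shSrsf10 and 99.2 CPM (97.6 to 101) in shCtrl, a log2 ratio of 0.06 (0.02 to 0.09). C2, the matching protease of the classical and lectin convertase, lies beside Cfb with a gap of 85 bases, on the same strand (34862604 to 34898265). A read-through gene, Gm20547, is annotated across both. It was not among the counted features, so no UMIs were assigned to it. C2 stood at 38.2 CPM (37.1 to 39.4) in shSrsf10 and 33.2 CPM (32.2 to 34.2) in shCtrl, a log2 ratio of 0.20 (0.15 to 0.26). The thinned shares of barcodes with a UMI were 9.52% in shSrsf10 and 9.59% in shCtrl for Cfb, and 3.59% and 3.47% for C2.

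C4b, the thioester protein cleaved to build the classical and lectin convertase, was higher in shSrsf10 at 9.38 CPM (8.83 to 9.94), against 6.14 CPM (5.73 to 6.57) in shCtrl, a log2 ratio of 0.61 (0.48 to 0.74). C4b (chromosome 17, 34728380 to 34743882) has a nearly identical copy, C4a (34809092 to 34823464), and reads may be assigned to either. C4a moved the other way, with 1.59 CPM in shSrsf10 and 3.88 CPM in shCtrl, for a log2 ratio of -1.28 (-1.53 to -1.04). The UMIs of both copies together came to 11.0 CPM (10.4 to 11.6) in shSrsf10 and 10.0 CPM (9.49 to 10.6) in shCtrl, a log2 ratio of 0.13 (0.02 to 0.24). The C4b ratio holds for the gene as counted, and the summed ratio equals that of C3 to 2 decimals.

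The ratios also varied with depth, which differed between the libraries. Tumour barcodes with at least 20000 UMIs numbered 2604 of 3953 in shSrsf10 and 2814 of 6950 in shCtrl. Under 10000, from 10000 to 20000 and from 20000 UMIs upward, the log2 ratio of C4b was 1.43, 1.10 and 0.67, and that of C3 was 0.34, 0.33 and 0.23. Cfb had 0.27, 0.27 and 0.10, and C2 had 0.10, 0.36 and 0.23. The ratios of C3 and C4b within each depth group were thus larger than those of the whole class.

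The C1q chains and receptors were low in tumour barcodes, although the C1q sum of shCtrl lay above C4b in the same barcodes, 6.14 CPM. The C1q sum stood at 4.30 CPM in shSrsf10 and 11.7 CPM in shCtrl, for a log2 ratio of -1.45 (-1.59 to -1.30). Of these UMIs, 1 barcode held 17.3% in shSrsf10, and 1 held 4.41% in shCtrl. The summed macrophage markers in the same barcodes, led by Apoe, which hepatocytes also make, were 4583 CPM in shSrsf10 and 7458 CPM in shCtrl. The A, B and C chains made up 29.6%, 43.9% and 26.5% of the C1q UMIs of shSrsf10 tumour barcodes, and 29.7%, 41.5% and 28.8% of those of shCtrl. In macrophage barcodes the same shares were 29.8%, 41.7% and 28.5% in shSrsf10 and 28.2%, 41.8% and 30.0% in shCtrl. Whether the tumour barcode UMIs came from free RNA was not tested. C5ar1 had 40 UMIs in shSrsf10 and 26 in shCtrl tumour barcodes, and C3ar1 had 2 and 5.

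Other complement genes of tumour barcodes were also mixed in direction. Of a list of 45, 32 were measured, with 6 at least 1.5-fold higher in shSrsf10, 10 at least 1.5-fold lower and 16 between, and a median log2 ratio of -0.23. Over all measured genes 9.43% were higher and 12.9% lower by that rule, with a median of -0.06. The proteases of the C1 complex, which start the classical pathway, were slightly higher: C1s1 stood at 87.6 CPM in shSrsf10 and 69.3 CPM in shCtrl, for a log2 ratio of 0.34, and C1ra at 26.6 and 20.6 CPM, a log2 ratio of 0.37. Cfi, the protease that inactivates C3b, differed by a log2 ratio of 0.13. Both soluble regulators of the terminal pathway had negative ratios. Clu, or clusterin, had 677 CPM in shSrsf10 and 861 CPM in shCtrl, for a log2 ratio of -0.35, and Vtn, or vitronectin, had 5.74 and 9.85 CPM, a log2 ratio of -0.78. Masp1, a protease of the lectin pathway, stood at 4.24 CPM in shSrsf10 and 6.71 CPM in shCtrl, for a log2 ratio of -0.66. Serping1, which inhibits C1r and C1s, was low in both, at 0.792 CPM in shSrsf10 and 0.442 CPM in shCtrl, for a log2 ratio of 0.84 (0.36 to 1.33). Itgb2, the leukocyte chain of the C3 fragment receptors, had the largest positive ratio at 1.62, with 0.977 CPM in shSrsf10 and 0.317 CPM in shCtrl. The summed T cell markers in the same barcodes were 23.2 CPM in shSrsf10 and 5.73 CPM in shCtrl, and their part in the Itgb2 value was not tested. The lowest ratio, -2.85, was that of Fcna, a lectin of macrophages.

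Genes induced by interferon gamma, a T cell cytokine, differed far more than C3 and Cfb. All 18 measured genes of 20 were at least 1.5-fold higher in shSrsf10 tumour barcodes, beside 9.43% of all measured genes. Their median log2 ratio was 2.28, against -0.06 over all measured genes. The largest ratios were those of the GTPases Gbp2 (3.09) and Gbp3 (2.82) and of Gbp5 (2.78). Acute phase genes, a group of liver plasma proteins induced in inflammation, had 2 of 13 measured genes higher, 6 lower and a median of -0.55, beside the same 9.43%, 12.9% and -0.06 over all genes. The largest positive value there was 0.95 for Hp, or haptoglobin, and the largest negative value was -2.20 for Apcs.

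**Figure D2:**
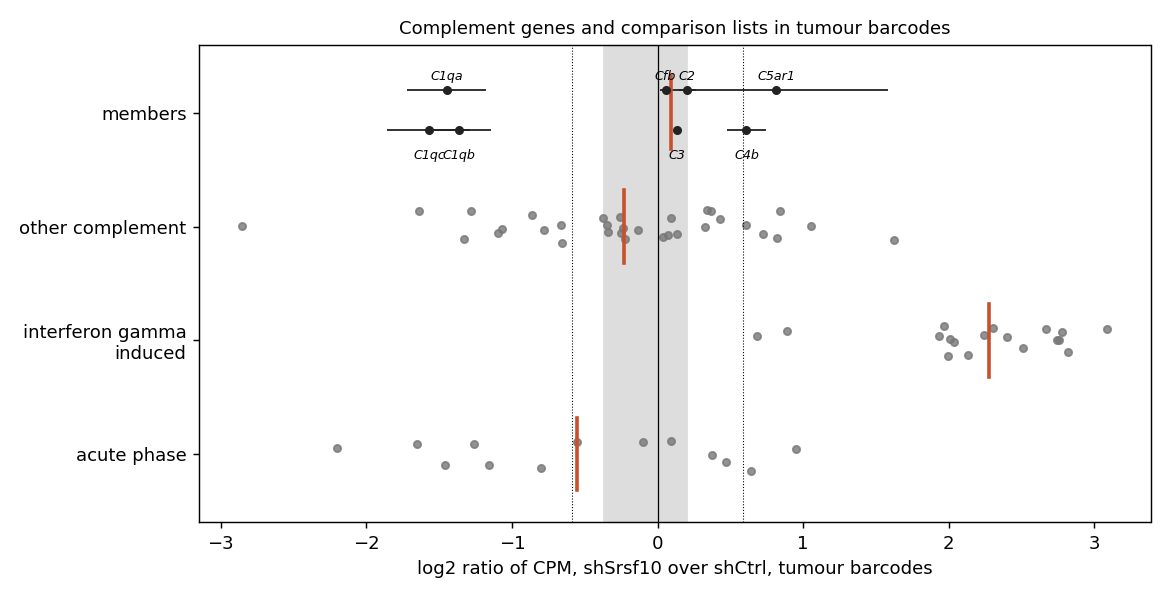
Log2 ratios of CPM, shSrsf10 over shCtrl, in tumour barcodes for the 8 measured members with 95% counting intervals, and for single genes of 3 comparison lists. Orange bars are medians, grey is the middle part (quartiles) of all 15034 measured genes and dotted lines are 1.5-fold, and only the interferon gamma list, median 2.28, lies wholly on the right.

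The near-equal levels of C3 and Cfb covered larger differences inside the class. Tumour barcodes of both libraries were pooled and split into 3 equal groups by the summed level of the 20 interferon gamma genes. C3 increased with the score within each library: in shSrsf10 it stood at 261, 324 and 468 CPM from the low to the high group, and in shCtrl at 340, 402 and 514 CPM. Cfb followed the same order, with 56.8, 88.0 and 111 CPM in shSrsf10 and 88.8, 105 and 120 CPM in shCtrl. C2 stood at 24.9, 30.5 and 41.8 CPM in shSrsf10 and at 30.8, 34.0 and 40.0 CPM in shCtrl. C4b stood at 6.91, 6.35 and 10.6 CPM in shSrsf10 and at 5.35, 5.90 and 10.2 CPM in shCtrl.

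Within each of the 3 score groups C3 and Cfb were lower in shSrsf10. Scores inside a group were not matched between the libraries. The log2 ratio of C3 was -0.38 (-0.46 to -0.30) in the low, -0.31 in the middle and -0.14 (-0.17 to -0.10) in the high group, and that of Cfb ran from -0.64 in the low to -0.11 in the high group. The libraries filled the groups unequally. The high group held 2794 of 3953 shSrsf10 barcodes, 70.7%, and 841 of 6950 shCtrl barcodes, 12.1%, while the low group held 5.54% and 49.1%. The whole-class ratio of C3 is thus positive while each of its 3 parts is negative.

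A split by hepatocyte identity gave the other order. The score was the summed level of Alb, Apoa1 and Ttr, and the low group held 54.3% of shSrsf10 and 21.4% of shCtrl tumour barcodes. C3 stood at 359, 468 and 624 CPM from low to high in shSrsf10 and at 261, 352 and 478 CPM in shCtrl. Within each of the 3 hepatocyte score groups C3 was therefore higher in shSrsf10, by log2 ratios of 0.38 to 0.46, and so were Cfb (0.30 to 0.56) and C2 (0.39 to 0.51). Inside these groups, too, scores were not matched. C4b had ratios of 1.18 to 1.44 and the steepest gradient of the 4 genes, with 5.09, 11.4 and 25.8 CPM in shSrsf10 and 2.25, 4.21 and 9.78 CPM in shCtrl. All 4 genes thus varied with both scores in each library. The scores and the library cannot be told apart with 1 library per group. A further split, by the 16 acute phase genes, filled its groups more evenly. Its low group held 34.5% of shSrsf10 and 32.6% of shCtrl tumour barcodes, and its high group 34.1% and 32.9%. There the log2 ratio ran from 0.03 to 0.33 for C3 and from -0.04 to 0.29 for Cfb. That of C2 ran from 0.15 to 0.26 and that of C4b from 0.55 to 0.77.

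**Figure D3:**
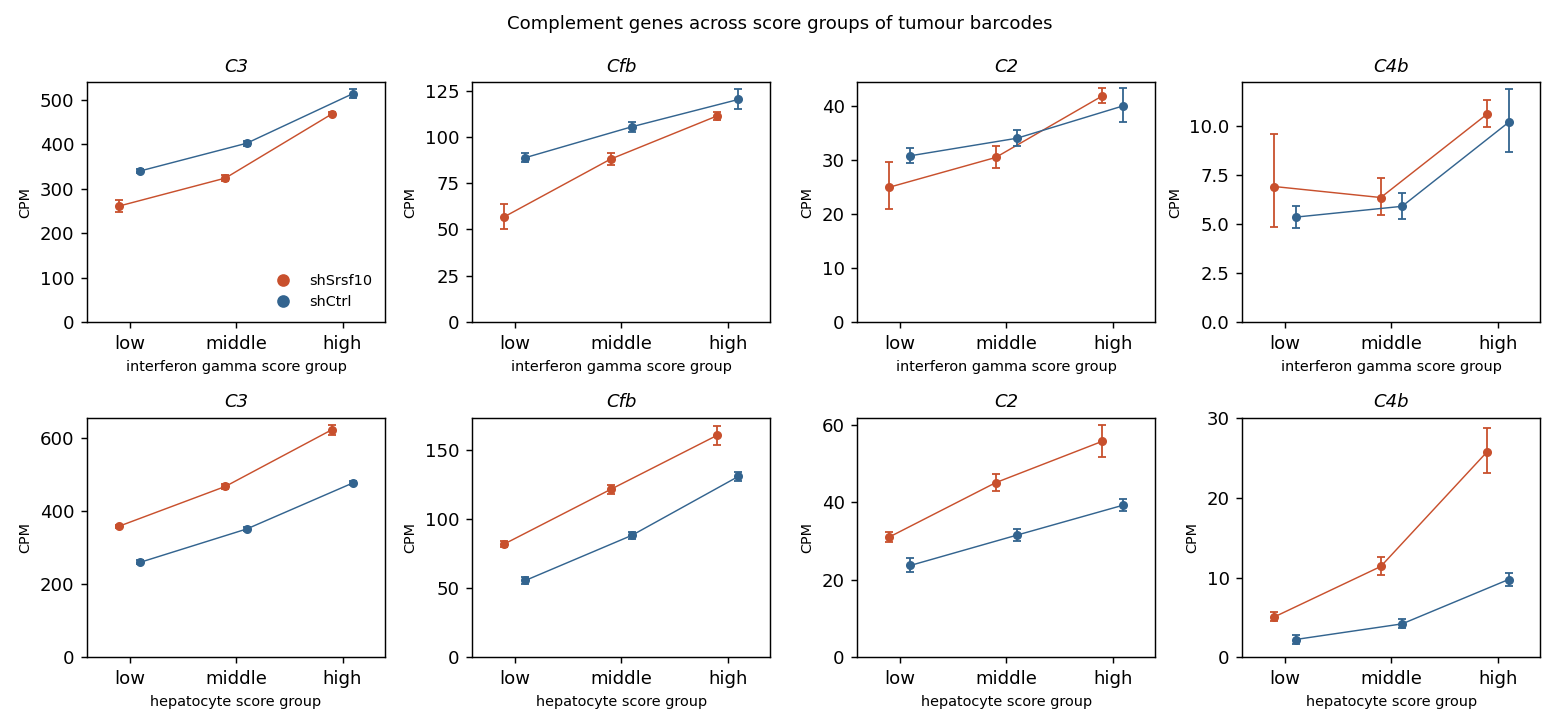
CPM of C3, Cfb, C2 and C4b in tumour barcodes of the low, middle and high groups of the interferon gamma score (upper row) and of the hepatocyte score (lower row), with 95% counting intervals and shSrsf10 drawn left of shCtrl. C3 and Cfb of shSrsf10 lie under shCtrl in the upper row and above it in the lower row.

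Across tumour barcodes, C3 varied most like other secreted liver proteins. The 5 genes of 9240 with the highest mean Pearson correlation over both libraries were Fgb, a fibrinogen chain (0.45 in shSrsf10, 0.48 in shCtrl), Alb (0.38 and 0.45), Cfb (0.43 and 0.38), Trf (0.36 and 0.44) and Hpx (0.41 and 0.37). Cfb had C3, Alb, Fgb, Hpx and Apoe. C4b had Fgg, Fga, Kng1, Ahsg and Gc, with values from 0.23 to 0.29, and C2 had Alb alone above 0.2 in both libraries. These values cover 3953 shSrsf10 and 6950 shCtrl barcodes that share a library and differ in depth.

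In macrophage barcodes the C1q chains were lower in shSrsf10, and the makeup of the class differed with them. Of 8 measured members none was at least 1.5-fold higher, beside 13.7% of 7080 measured genes, and 2, C1qc and C3ar1, were at least 1.5-fold lower, beside 18.5% of genes. C1qa stood at 1554 CPM in shSrsf10 and 2122 CPM in shCtrl, for a log2 ratio of -0.45 (-0.54 to -0.36). C1qb stood at 2173 and 3151 CPM, a log2 ratio of -0.54 (-0.61 to -0.46). C1qc stood at 1489 and 2257 CPM, a log2 ratio of -0.60 (-0.69 to -0.51). The 3 chains together had 5854 UMIs in shSrsf10 and 7807 in shCtrl, which is 5215 CPM (5082 to 5350) and 7529 CPM (7363 to 7698), a log2 ratio of -0.53 (-0.58 to -0.48).

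The chains are neighbours on chromosome 4 in the order C1qb (136880129 to 136886187), C1qc (136889804 to 136893065) and C1qa (136895917 to 136898803), all on the minus strand, with gaps of 3616 and 2851 bases. They were held by the same barcodes, with Pearson correlations between pairs of chains of 0.95 to 0.98 in 134 shSrsf10 and 0.92 to 0.95 in 205 shCtrl macrophage barcodes. The 250 bases before the RefSeq starts of C1qb (GRCm38.p6, chr4:136886201-136886450, minus strand) and C1qc (chr4:136892915-136893164, minus strand) are shown because these genes move together, with the same motifs in capitals.
C1qb: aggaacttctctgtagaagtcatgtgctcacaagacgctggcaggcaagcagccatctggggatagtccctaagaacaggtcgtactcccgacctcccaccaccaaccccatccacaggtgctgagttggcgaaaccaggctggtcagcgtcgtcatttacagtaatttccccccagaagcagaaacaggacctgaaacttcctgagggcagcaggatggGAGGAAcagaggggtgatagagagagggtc
C1qc: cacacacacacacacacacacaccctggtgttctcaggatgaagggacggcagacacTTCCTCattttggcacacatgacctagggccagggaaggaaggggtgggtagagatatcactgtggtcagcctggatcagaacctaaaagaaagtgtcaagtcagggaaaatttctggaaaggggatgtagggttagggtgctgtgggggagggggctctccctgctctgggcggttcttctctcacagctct
Both windows held the PU.1-type letters, 30 bases before the start and on the same strand in C1qb, and 193 bases before it on the opposite strand in C1qc. These letters occur in 23.3% of all windows. No other searched motif occurs in either window. The GENCODE start of C1qc, at 136893065, lies inside its window, so part of that window is within the gene as GENCODE positions it. The match lies outside that part.

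Per barcode, C1q was either abundant or absent. In shSrsf10, 64 of 134 macrophage barcodes had no C1q UMI, 10 had 1 to 9 and 60 had 10 or more, and in shCtrl the numbers were 52, 14 and 139 of 205. The share with any C1q UMI was 52.2% in shSrsf10 and 74.6% in shCtrl. T cells do not make C1q, and T barcodes gave 3.51% in shSrsf10 and 12.2% in shCtrl at median depths of 2687 and 2260 UMIs. Thinned to 1000 UMIs, the macrophage shares were 47.4% in shSrsf10 and 73.5% in shCtrl, against 1.58% and 7.85% in T barcodes.

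C1q differed strongly with the other myeloid markers of a barcode. Barcodes with at least 2 UMIs of Ly6c2 and Ccr2, markers of recruited monocytes, made up 73 of 134 shSrsf10 macrophage barcodes, 54.5% (45.7 to 63.1), and 38 of 205 in shCtrl, 18.5% (13.5 to 24.5). In them the C1q sum stood at 970 CPM in shSrsf10 and 1602 CPM in shCtrl. Barcodes with at least 2 UMIs of the Kupffer cell markers Clec4f and Cd5l numbered 4 in shSrsf10 and 23 in shCtrl, and held 15091 and 14899 CPM of C1q. The remaining barcodes, with neither set of markers, numbered 57 in shSrsf10 and 144 in shCtrl. In these C1q was higher in shSrsf10, at 11034 CPM (log2 ratio 0.35, 0.29 to 0.40), against 8677 CPM in shCtrl. Leaving out those with at least 5 keratin or at least 2 Cd3 UMIs gave 15299 CPM in shSrsf10 and 12248 CPM in shCtrl, for a log2 ratio of 0.32. The lower C1q of the whole class and the larger share of Ly6c2 or Ccr2 barcodes thus moved together, and the ratio was reversed outside those barcodes. Ly6c2 also differed outside macrophages, with 669 CPM in shSrsf10 and 66.6 CPM in shCtrl T barcodes, where 60.3% and 15.6% of barcodes held it, and with 4.80 and 0.398 CPM in tumour barcodes. Ccr2 had 50.3 CPM in shSrsf10 and 11.4 CPM in shCtrl T barcodes. The summed T cell markers in macrophage barcodes were 300 CPM in shSrsf10 and 62.7 CPM in shCtrl. The part of these values in the share of Ly6c2 or Ccr2 barcodes, and the part of that share in the whole-class ratio, were not tested.

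**Figure D4:**
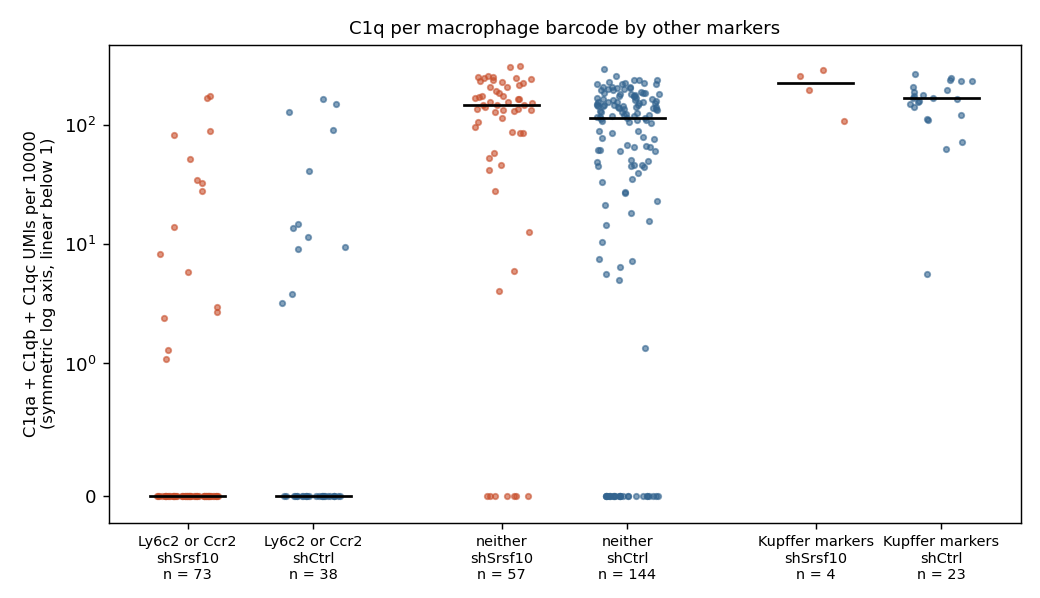
C1qa, C1qb and C1qc UMIs per 10000 in each macrophage barcode (symmetric log axis, black line at the median), by whether it held Ly6c2 or Ccr2, neither set, or Kupffer markers, with shSrsf10 left of shCtrl. Most of the 73 shSrsf10 and 38 shCtrl barcodes with Ly6c2 or Ccr2 lie at 0, and most of the others lie far above it.

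The rule for macrophages missed some C1q. Barcodes with Adgre1 or Csf1r but under 3 Lyz2 UMIs numbered 28 in shSrsf10 and 150 in shCtrl, and had 3925 and 10389 CPM of C1q. The 5 Kupffer markers summed to 70.4 CPM in shSrsf10 and 325 CPM in shCtrl macrophage barcodes, and none of the 5 was at 0 in either. Barcodes outside all 4 classes held 21.5% of C1q UMIs in shSrsf10 and 39.5% in shCtrl. Fcna, a ficolin made by macrophages that starts the lectin pathway, was 24.1 CPM in shSrsf10 and 172 CPM in shCtrl, for a log2 ratio of -2.84 (-3.48 to -2.25). Vsig4, a Kupffer cell receptor for C3 fragments, had 8 UMIs in shSrsf10 and 31 in shCtrl. Cfp, or properdin, which stabilises the alternative convertase, differed little, with 307 CPM in shSrsf10 and 346 CPM in shCtrl.

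C1q varied most like genes of antigen presentation and lysosomes in macrophage barcodes. The 5 closest of 6139 genes were H2-Eb1, an MHC class II chain (Pearson r of 0.75 in shSrsf10 and 0.64 in shCtrl), Acp5 (0.77 and 0.61), Lgmn (0.75 and 0.62), Cd81 (0.74 and 0.60) and Aif1 (0.71 and 0.60).

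Macrophage barcodes also held Cfb in a proportion that tumour barcodes did not show. They had 1.54 C3 UMIs per Cfb UMI in shSrsf10 (1.27 to 1.87) and 1.80 in shCtrl (1.44 to 2.25), against 4.10 and 3.89 in tumour barcodes. Cfb stood at 160 CPM (138 to 186) in shSrsf10 and 122 CPM (102 to 146) in shCtrl, a log2 ratio of 0.39 (0.05 to 0.73), with at least 1 UMI in 45.5% of shSrsf10 and 28.8% of shCtrl barcodes. Cfb was also taken in barcodes with neither monocyte nor Kupffer markers, under 5 keratin UMIs and under 2 Cd3 UMIs. There it stood at 279 CPM in shSrsf10 and 165 CPM in shCtrl, for a log2 ratio of 0.76 (0.29 to 1.24). In the whole class the correlation of Cfb with C1qb was 0.45 in shSrsf10 and 0.27 in shCtrl, while that of C3 with C1qb was -0.05 and -0.10. C3 in the class was 247 CPM in shSrsf10 and 220 CPM in shCtrl, and C2 and C4b had 23 and 11 UMIs in shSrsf10 and 15 and 8 in shCtrl. Without barcodes of at least 5 keratin or at least 2 Cd3 UMIs, C2 had 2 UMIs in shSrsf10 and 8 in shCtrl.

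Of the receptors, C3ar1 (chromosome 6, 122847138 to 122856161) had a lower level in shSrsf10 macrophage barcodes as classed, on few UMIs. It stood at 16.0 CPM (9.50 to 25.3) in shSrsf10 and 37.6 CPM (26.7 to 51.4) in shCtrl, a log2 ratio of -1.23 (-2.12 to -0.39) on 18 and 39 UMIs. In barcodes with neither monocyte nor Kupffer markers it was 25.1 CPM in shSrsf10 and 41.1 CPM in shCtrl, with an interval of the log2 ratio from -1.86 to 0.32, so a difference there was not detectable at this depth. The interval also includes 0 under the stricter class rule (-0.60, -1.69 to 0.46), for barcodes of 1 class only (-0.85, -1.76 to 0.01) and without the Lyz2 minimum (-0.73, -1.53 to 0.04). C5ar1 (chromosome 7, 16246743 to 16259540) was 35.6 CPM in shSrsf10 and 51.1 CPM in shCtrl, with an interval from -1.15 to 0.10.

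In neutrophil barcodes C5ar1 was 3.42-fold higher in shSrsf10. It had 262 UMIs in shSrsf10 and 40 in shCtrl, or 775 CPM (684 to 875) and 227 CPM (162 to 309), a log2 ratio of 1.77 (1.29 to 2.29). It was seen in 53.7% of the 300 shSrsf10 barcodes and 19.1% of the 157 shCtrl barcodes, and in T barcodes, which should lack it, in 0.522% and 0.260%. These barcodes were shallow, with 225 of 300 in shSrsf10 and 124 of 157 in shCtrl under 1000 UMIs. Among the others, thinned to 1000 UMIs, the share was 48.0% in shSrsf10 and 15.2% in shCtrl. Of the 9 members, C3 and C5ar1 alone reached 20 UMIs in the class, and 1 of these 2 was at least 1.5-fold higher, beside 28.6% of all 2563 measured genes. At least 1.5-fold lower was neither, beside 20.8% of genes.

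The C5ar1 difference was seen at every level of S100a8 and S100a9. Where these took 1 to 2% of UMIs, C5ar1 stood at 1006 CPM in 38 shSrsf10 barcodes and 53.4 CPM in 19 shCtrl barcodes, on 42 and 2 UMIs. From 2 to 5% it stood at 472 CPM in shSrsf10 and 198 CPM in shCtrl, from 5 to 10% at 903 and 286 CPM, and at 10% or more at 912 and 311 CPM. Csf3r, the neutrophil growth factor receptor, also differed at the lowest level, with 958 CPM in shSrsf10 and 187 CPM in shCtrl, for a log2 ratio of 2.36 (1.18 to 3.76). The hepatocyte gene Alb moved the other way at that level, with 240 CPM in shSrsf10 and 2243 CPM in shCtrl, and its part in the C5ar1 value there was not tested. Above the lowest level the log2 ratios of Csf3r were 0.10, -0.05 and 0.30, each with an interval that includes 0. Other neutrophil markers were not all level over the whole class. Cxcr2 stood at 249 CPM in shSrsf10 and 136 CPM in shCtrl, and G0s2 at 6804 and 4656 CPM. Retnlg moved the other way, with 2752 and 3408 CPM. Barcodes with no keratin UMI gave 959 CPM of C5ar1 in shSrsf10 and 253 CPM in shCtrl. Other genes differed as well. Il1b, which encodes a cytokine, stood at 8728 CPM in shSrsf10 and 4098 CPM in shCtrl in keratin-free neutrophil barcodes. All 12 measured interferon gamma genes of the class were at least 1.5-fold higher in shSrsf10, beside 28.6% of all 2563 measured genes. Their median log2 ratio was 2.11, against 0.10 over all measured genes. The link of Il1b and of these genes to C5ar1 was not tested. No gene reached a correlation of 0.2 with C5ar1 in both libraries.

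The 250 bases before the RefSeq start of C5ar1 (GRCm38.p6, chr7:16259339-16259588, minus strand) are shown because C5ar1 and the interferon gamma genes were both higher in these barcodes.
C5ar1: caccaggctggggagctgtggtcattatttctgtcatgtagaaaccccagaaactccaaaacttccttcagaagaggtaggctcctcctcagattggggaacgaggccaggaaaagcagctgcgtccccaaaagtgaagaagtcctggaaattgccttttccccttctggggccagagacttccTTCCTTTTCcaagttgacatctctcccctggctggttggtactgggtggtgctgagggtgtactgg
The window held 1 IRF match on the opposite strand, in capitals, at 66 bases before the RefSeq start, and none of the other searched motifs. The GENCODE start of C5ar1 is at 16259540, inside this window. Most of the window, with the match, thus lies within the gene as GENCODE positions it. As given for C3, IRF letters occur in 7.13% of windows, and a match does not show binding.

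**Figure D5:**
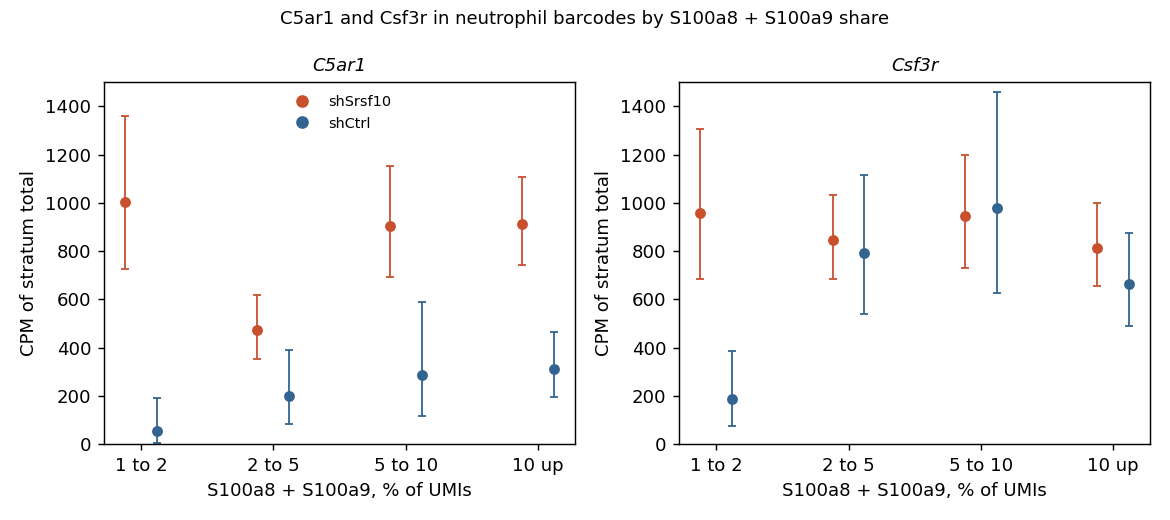
CPM of C5ar1 (left) and Csf3r (right) in neutrophil barcodes by the share of UMIs from S100a8 and S100a9, with 95% counting intervals and shSrsf10 left of shCtrl. C5ar1 of shSrsf10 lies above shCtrl at all 4 levels, and Csf3r is close between the libraries from 2% upward.

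C3 in neutrophil barcodes had 85 UMIs in shSrsf10 and 63 in shCtrl, or 252 CPM (201 to 311) and 357 CPM (275 to 457), a log2 ratio of -0.51 (-0.99 to -0.01). With no keratin UMI the values were 249 CPM in shSrsf10 and 242 CPM in shCtrl. Cfb had 3 UMIs in shSrsf10 and 5 in shCtrl, so C3 outnumbered Cfb by 28.3 (9.37 to 140) in shSrsf10 and 12.6 (5.12 to 40.1) in shCtrl, against 4.10 and 3.89 in tumour barcodes. C3 also stood higher against Alb, at 1.00 C3 UMI per Alb UMI in shSrsf10 and 0.409 in shCtrl, against 0.264 and 0.174 in tumour barcodes. T barcodes with under 5 keratin UMIs and outside the macrophage class had 3.63 C3 UMIs per Cfb UMI in shSrsf10 (2.48 to 5.44) and 9.00 in shCtrl (4.12 to 23.3), and 0.300 and 0.286 per Alb UMI. The source of the C3 UMIs in neutrophil barcodes was not tested. C4b had no UMI in either library, with the upper end of the interval at 10.9 CPM in shSrsf10 and 20.9 CPM in shCtrl, and C3ar1 had 0 and 1.

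T barcodes also held complement UMIs. Of 7 measured members, 1 was at least 1.5-fold higher in shSrsf10 (C4b), beside 11.4% of 11659 genes, and 3 at least 1.5-fold lower (the C1q chains), beside 19.8%. C3 stood at 246 CPM in shSrsf10 and 202 CPM in shCtrl, but 226 of 2107 shSrsf10 and 48 of 385 shCtrl T barcodes also held 5 or more keratin UMIs. Those held 453 CPM of C3 in shSrsf10 and 334 CPM in shCtrl. Without them and without macrophage barcodes C3 stood at 18.9 CPM in shSrsf10 and 63.0 CPM in shCtrl. That is a log2 ratio of -1.74 (-2.19 to -1.28), so the direction was reversed. In the same barcodes Alb stood at 62.8 CPM in shSrsf10 and 220 CPM in shCtrl, a log2 ratio of -1.81. Krt8 had a ratio of -1.02 (-1.36 to -0.66) and Krt18 one of 0.14 (-0.21 to 0.51). The part of tumour RNA in the C3 value was not tested. C4b then had 6 UMIs in shSrsf10 and 3 in shCtrl. The C1q sum kept its direction in those barcodes, with 57.2 CPM in shSrsf10 and 91.0 CPM in shCtrl. The log2 ratio was -0.67, with the upper end of its interval at -0.32. Of these C1q UMIs, 1 barcode held 26.5% in shSrsf10 and 1 held 29.7% in shCtrl. In the T barcodes with 5 or more keratin UMIs the C1q sum was 51.3 CPM in shSrsf10 and 31.6 CPM in shCtrl. There 1 barcode held 43.5% of the C1q UMIs in shSrsf10 and 1 held 44.1% in shCtrl.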

How the data were processed

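The authors deposited raw UMI counts, 1 matrix of genes by barcodes for each library. Cell Ranger 6.1.0 and build mm10 are named in the submitters' processing notes. Barcodes are 17 bases long and none has under 500 UMIs, and any earlier filter was not given in the sources used here. The study's labels give 1 library per group, so no test was run. Barcodes were kept with at least 200 genes, 500 UMIs and at most 20% mitochondrial UMIs, and classed by the marker rule in the text; a barcode could fall in several classes. Doublets stayed in: removing the highest Scrublet scores (scanpy 1.11.5), 448 in shSrsf10 and 728 in shCtrl, was an alternative, since the automatic threshold marked 200 and 0. UMIs were summed per class and library and given as CPM, with exact Poisson, conditional binomial (ratios) and Clopper-Pearson (shares) intervals at 95% from scipy 1.17.1. Genes counted as measured had at least 20 UMIs over both libraries, and called means 1.5-fold. Shares were also taken after thinning to 1000 UMIs. For 40 duplicate symbols the copy with more UMIs was used.

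Members and lists were chosen with earlier results of these data known. Named genes were all 9 members and, of other complement genes with at least 50 UMIs, up to 6 by level and up to 6 by ratio in each direction, of which a selection is printed; Serping1, Cfi, Vsig4, Il1b, Csf3r, C4a and Apcs were named for their role, or as a gene copy, after their values were seen. The score groups and macrophage subsets were also set after earlier results were seen. Positions are from GENCODE vM21; promoters are from RefSeq, which matched 5 of 9 members. The scripts were tested on simulated data.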

Additional observations from a re-analysis of the deposited data

Results flagged for a closer look

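C3 had a positive log2 ratio of shSrsf10 over shCtrl in tumour barcodes, 0.13, and in T barcodes, 0.29, and a negative one in neutrophil barcodes, -0.51. The signs thus differed between classes as summed. The difference between classes was not tested, since each group is 1 library. The T value turned to -1.74 without keratin and macrophage barcodes, where the log2 ratio of Alb was -1.81. The neutrophil value turned to 0.04 without barcodes that held a keratin UMI.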

How the results depend on the processing

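No paired analysis was possible because each group is 1 library. Keeping every barcode, requiring 500 genes, removing the highest Scrublet scores or keeping barcodes of 1 class left all 7 member ratios within their counting intervals. Relative to the median gene, the log2 ratios in tumour barcodes were 0.19 for C3, 0.12 for Cfb and 0.27 for C2. The mean of per-barcode CPM gave 0.095 for C3, 0.77 for C4b and -0.43 for the C1q sum. Thinning to 1000 UMIs gave 0.054 for C3, 0.35 for C4b on 47 and 65 UMIs, and -0.091 for C2, whose sign reversed on 128 and 240 UMIs with an interval from -0.41 to 0.22. For the C1q sum in macrophages the stricter class rule gave -0.36, and leaving out the top barcode of each library gave -0.60. Requiring 100 UMIs left 3 other complement genes at least 1.5-fold higher and 5 lower in tumour barcodes, with fewer genes tested. Alternatives chosen after seeing the data gave 0.13 for C4b and C4a together, -0.66 for the C1q sum without the Lyz2 minimum, and 0.35, a reversal, without Ly6c2, Ccr2 and Kupffer marker barcodes. C5ar1 in neutrophil barcodes ran from 1.44 to 1.95 over its 11 alternatives and C3ar1 in macrophage barcodes from -1.34 to -0.41. Where a cause is not given, it was not tested. Shallow neutrophil barcodes and the few C3ar1 UMIs limit what could be seen, and intervals say nothing of variation between animals.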

Other observations

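Outside the 9 genes, Hp, which encodes the haemoglobin-binding protein haptoglobin, had the largest positive ratio of the acute phase list in tumour barcodes, 0.95, and was also higher in shSrsf10 in macrophage barcodes, with 348 CPM in shSrsf10 and 74.3 CPM in shCtrl, and in neutrophil barcodes, with 1101 CPM in shSrsf10 and 561 CPM in shCtrl. Saa3, a serum amyloid gene of inflamed macrophages, had 114 UMIs in shSrsf10 and 3 in shCtrl macrophage barcodes, held by 5.97% of the shSrsf10 and 0.976% of the shCtrl barcodes. Lcn2, the siderophore-binding protein of epithelium and neutrophils, was lower in shSrsf10 in all 4 classes, with 1853 CPM in shSrsf10 and 3136 CPM in shCtrl neutrophil barcodes.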
